A study of Homo sapiens with 4 samples.

Results

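Nascent RNA from 45 genes of DNA replication and S phase was compared between cells whose RNA polymerase II (Pol II) had a wild-type or a T4A C-terminal domain (CTD). The 45 genes were chosen by symbol, as genes of origin licensing, of the replication fork and of nucleotide supply, from the 60708 Ensembl genes of the deposited count table, and each symbol was found in it. HEK293 cells, which derive from human embryonic kidney, were used with a degron on endogenous RPB1, the largest Pol II subunit, so that auxin triggers its destruction. They were transiently transfected with an RPB1 plasmid that carried either the 52X WT CTD or the 52X T4A CTD, in which alanine replaces Thr4 of every repeat. All 4 libraries, 2 of 52X WT and 2 of 52X T4A, came from cells that had received auxin for 48 h, starting 48 h after transfection. RNA was labeled with 4-thiouridine for 20 min before TT-seq, which sequences the labeled fragments, introns included. Transient transfection leaves a mixture of cells with different amounts of plasmid, and no library of untransfected cells or of cells without auxin was analysed here. The labels do not say that the libraries of a condition came from separate cultures, so p-values measure only the spread between these libraries, which may be technical.

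A chromosome is copied from many origins. In G1, the origin recognition complex (ORC1 to ORC6), CDC6 and CDT1 load the MCM2-7 helicase onto DNA, and in S phase CDC45, the GINS complex and MCM10 turn the loaded helicase into a moving fork. Behind it, RPA covers single-stranded DNA, polymerase alpha-primase starts each new strand, RFC loads the PCNA clamp, polymerases delta and epsilon extend the strands, and FEN1 and LIG1 join the lagging strand, while ribonucleotide reductase (RRM1, RRM2) and thymidylate synthase (TYMS) supply nucleotides. Many of these genes are transcribed at the G1/S transition under E2F factors, of which E2F1 is included here, together with UHRF1, which keeps DNA methylation through replication. HEK293 cells carry adenoviral E1A, which frees E2F from RB family proteins. The libraries come from unsorted cells, and fewer cells in S phase and less nascent RNA per cell cannot be told apart in bulk samples.

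The counts summed to 39249066 and 45605027 in 52X WT replicates 1 and 2 and to 33853507 and 33188536 in 52X T4A replicates 1 and 2, of which the 45 genes held between 0.541% and 0.570%. Levels are given as CPM, counts scaled to the library size after TMM scaling of the libraries. For cell type markers alone, CPM were scaled to the total counts without TMM. Of 8 HEK293 markers, 7 were at 1 CPM or more in every library, and the exception, NEFM, was at 0.132 CPM or less. Of 8 defining markers of other cell types, 7 were found in the table and 5 of them were below 1 CPM in every library, with COL1A1 the highest at 1.83 to 3.07 CPM. POLR2A, which encodes RPB1 and whose counts may include transcripts of the plasmid, was at 9640 and 8720 CPM in the WT libraries and at 7492 and 8083 CPM in the T4A libraries (log2 fold change −0.24, SE 0.25, adjusted p = 0.659). T4A replicate 1 stood apart. Its log2 CPM correlated at 0.985 and 0.986 with the WT libraries and at 0.988 with T4A replicate 2, whereas T4A replicate 2 correlated at 0.994 with both WT libraries, which correlated at 0.996 with each other. These are correlations over genes, which are not independent replicates.

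The replication genes were all transcribed where they could be counted, at levels that spanned about 2 orders of magnitude per length. A filter on low counts left 43 of the 45 genes. FEN1, the flap endonuclease of Okazaki fragments, had counts of 2, 3, 0 and 2 in the WT and T4A libraries, and POLA2, the second subunit of polymerase alpha, had 0 in each. FADS2 covers 98.4% of the FEN1 span on the same strand, and another protein-coding gene (ENSG00000285816) covers 99.98% of the POLA2 span. Reads over a pair of genes of the same strand may not have been counted, but the counting settings are not given. These values are therefore not taken as a measure of the transcription of FEN1 or POLA2. PRIM1, the catalytic primase subunit, shares 48.6% of its span in the same way, and its counts may come from the rest alone. Processed copies of member genes took few reads, with at most 41 counts in a library, at TYMSP2.

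Levels of different genes were compared as CPM per kb of the listed gene span, as means over the 4 libraries with the SD. PCNA was highest at 17.97 CPM per kb (SD 1.88), with no library of another gene in its range. CDC6 (9.77, SD 1.16), TYMS (9.36, SD 1.13) and MCM7 (8.97, SD 0.74) followed with overlapping ranges. RPA3, the smallest RPA subunit, was lowest at 0.188 CPM per kb (SD 0.0152), 95.5-fold below PCNA.

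Some subunits of a complex lay apart in level and others did not. Among the MCM2-7 helicase subunits, which are needed in equal number, the order was MCM7, MCM3, then MCM4 and MCM2 with overlapping ranges, then MCM6 (2.06 CPM per kb, SD 0.0918). In the origin recognition complex ORC6 (7.03 CPM per kb, SD 0.57) was 8.35-fold above ORC3 (0.842, SD 0.118). RPA2 (3.26, SD 0.48) was 17.3-fold above RPA3, and RFC5 (6.03, SD 0.55) was 2.93-fold above RFC3 (2.06, SD 0.18), with RFC2, RFC1 and RFC4 between them, each overlapping the next. The subunits of ribonucleotide reductase, RRM1 (3.63, SD 0.31) and RRM2 (3.62, SD 0.43), overlapped, and so did POLD2 and POLD1. In CPM without length, RRM2 was above RRM1 in every library, and its listed span is longer, at 91028 against 44226 bases. Other than PRIM1 and POLD3, primase and polymerase subunits ran from 1.01 CPM per kb (SD 0.0721) for PRIM2 to 2.85 (SD 0.24) for POLA1. These levels depend on the listed span. The span of GINS3 is 8.12 times and that of POLD3 2.28 times the length of the RefSeq gene, and that of MCM5 is 0.461 times. Much of the PRIM1 span may not be counted. The levels per kb of these 4 genes are therefore not comparable with those of the others.

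**Figure D1:**
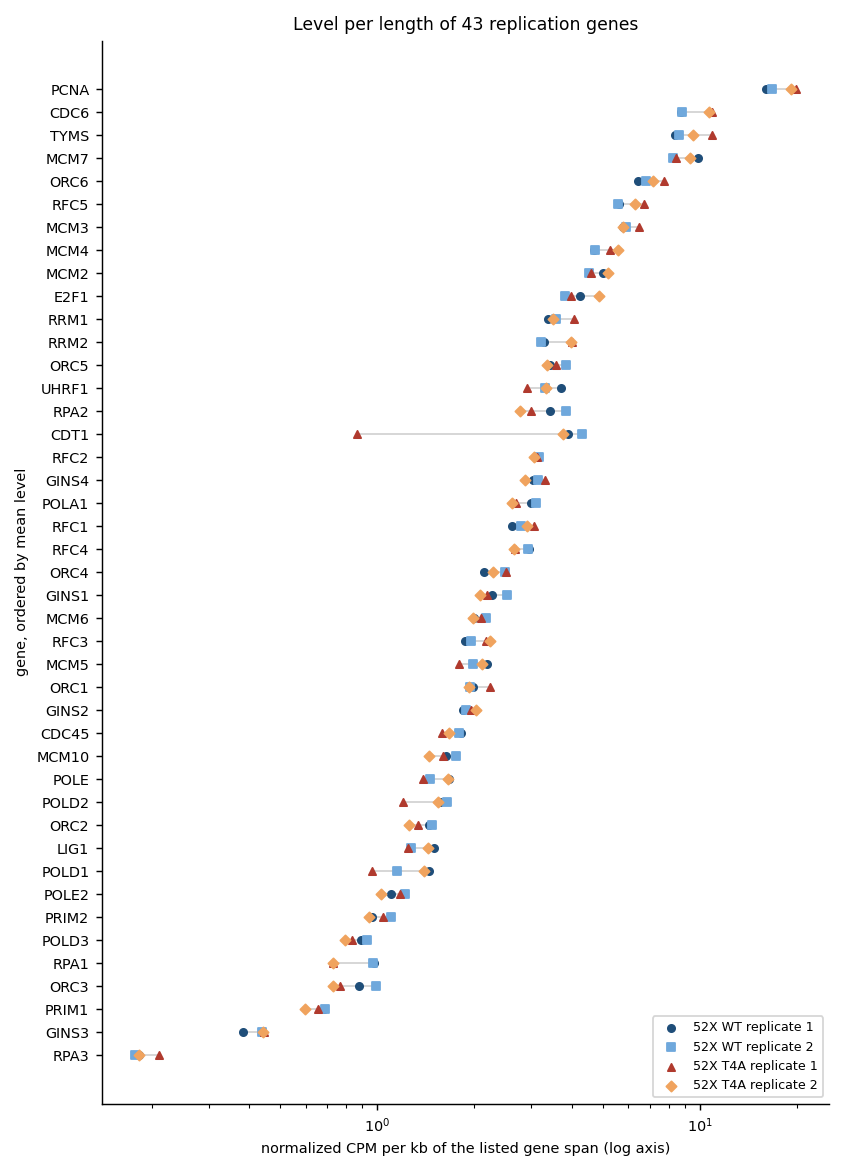
Normalized CPM per kb of the listed gene span (log axis) for the 43 tested genes, ordered by mean; symbols are the 4 libraries and grey lines their range. PCNA is highest at 17.97 and RPA3 lowest at 0.188 CPM per kb, and most ranges are narrow beside the differences between genes, with CDT1 in T4A replicate 1 the exception.

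No replication gene differed between 52X T4A and 52X WT after adjustment over all 23321 genes tested (0 of 43 at an adjusted p below 0.05 in edgeR's quasi-likelihood test). Across all tested genes 1 gene, or 0.00429%, was called, so this count says little about the replication genes. At an unadjusted p below 0.05, 3 members were lower in T4A (6.98%, against 8.02% of all tested genes) and 6 were higher (13.95%, against 7.45%). The lower ones were RPA1, RPA2 and ORC3. The higher ones were CDC6, RRM2, PCNA, TYMS, RFC5 and MCM4. Both T4A libraries lay below both WT libraries for 14 members (32.6%, against 24.7% of all tested genes) and above them for 11 (25.6%, against 24.8%). The median log2 fold change of the members was −0.03, and it was also −0.03 relative to that of all tested genes. Summed over the members, CPM came to 5442 and 5602 in the WT libraries and to 5583 and 5469 in the T4A libraries, which overlap. Without T4A replicate 1, 3 members were lower (6.98%, against 7.75%) and 3 higher (6.98%, against 6.25%) at an unadjusted p below 0.05, and 0 were called against 1.36% of all tested genes. These 6 were RPA1, RPA2 and ORC3, and CDC6, RRM2 and E2F1.

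The counts of members at an unadjusted p below 0.05 depended on the scaling. With library sizes in place of TMM, 4 members were lower (9.30%, against 6.31% of all tested genes) and 10 higher (23.3%, against 10.5%) at an unadjusted p below 0.05. With scaling to the mitochondrially encoded genes, which Pol II does not transcribe, 2 were lower (4.65%, against 4.92%) and 0 higher (against 5.72%). The median of the members relative to all tested genes was −0.03 in each. Log2 fold changes lay below 0 for 25 members and above for 18 with mitochondrial scaling, as with TMM, and for 19 and 24 with library sizes. With mitochondrial scaling RRM2 was at 0.29 (SE 0.26) and RPA1 at −0.43 (SE 0.20), against 0.30 (SE 0.10) and −0.42 (SE 0.09) with TMM. The fold changes of these 2 genes thus hardly moved while their SE grew. The SE of CDT1 fell instead, from 0.50 to 0.21.

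Of 15 alternatives, 10 called 0 members and 5 called at least 1. DESeq2 called 5 members, RPA1, RPA2, CDC6, RRM2 and PCNA, against 8.22% of the 11113 genes to which it gave an adjusted p. Removal of each library's trend on GC content, a correction chosen after the data were seen, called RPA1, RPA2, CDC6 and RRM2, against 4.21% of all tested genes. Without T4A replicate 2, RPA1, CDT1, TYMS and POLD1 were called, against 13.8% of genes. Scaling to the mitochondrially encoded genes called CDT1 alone, against 0.836%, and so did the replicate number as a block, against 2.29%. RPA1 was therefore called in 3 of these fits and CDT1 in 3.

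**Figure D2:**
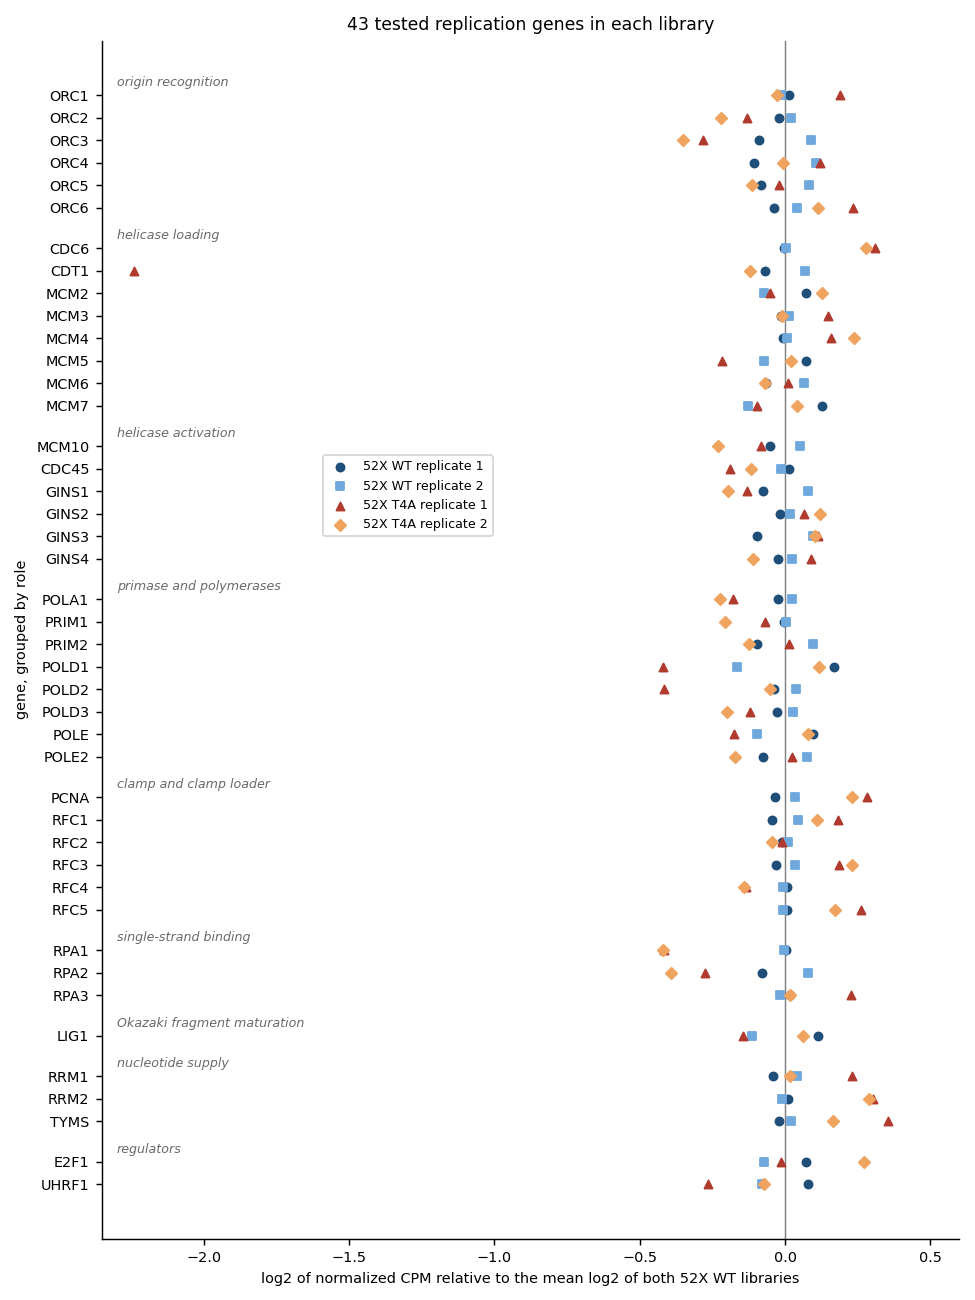
Log2 of the normalized CPM of each of the 43 tested genes in each library, relative to the mean of the log2 values of both 52X WT libraries (vertical line at 0), grouped by role. In RPA1, CDC6 and RRM2 the libraries of each condition lie close together and apart from the other condition, and CDT1 in T4A replicate 1 lies far below every other value.

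RPA binds and protects single-stranded DNA at the fork, and its larger subunits had the lowest p-values among the members with lower values in T4A. RPA1 (ENSG00000132383, chr17:1829702-1900082, plus strand, GRCh38) was at 68.8 and 68.4 CPM in the WT libraries and at 51.4 and 51.3 CPM in the T4A libraries. The libraries of a condition nearly coincided, and the conditions were far apart beside that spread. The log2 fold change was −0.42 (SE 0.09, unadjusted p = 0.00122, adjusted p = 0.173), and adjusted p-values under the alternatives ran from 0.00258 to 0.585. RPA2 was at 79.8 and 89.1 CPM in WT and at 69.7 and 64.2 CPM in T4A, with no overlap (log2 fold change −0.34, SE 0.10, unadjusted p = 0.00791, adjusted p = 0.230). RPA3, at 15.0 and 14.6 CPM in WT and 17.3 and 15.0 CPM in T4A, had overlapping conditions and a log2 fold change of 0.13 (SE 0.14). Its difference from RPA1 and RPA2 was not tested.

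Nucleotide supply genes had higher values in T4A. RRM2, the regulatory subunit of ribonucleotide reductase that is made in S phase, was at 298.2 and 293.7 CPM in WT and at 365.3 and 361.9 CPM in T4A, with no overlap. Its log2 fold change was 0.30 (SE 0.10, unadjusted p = 0.0138, adjusted p = 0.247), with adjusted p-values of 0.00302 to 0.804 under the alternatives. TYMS, which makes thymidylate, was at 133.7 and 137.3 CPM in WT and at 173.3 and 152.0 CPM in T4A (log2 fold change 0.26, SE 0.10, unadjusted p = 0.0241, adjusted p = 0.271). Here the conditions did not overlap, but the T4A libraries differed from each other by more than the WT libraries did. RRM1, the catalytic subunit of the reductase, was at 149.2 and 158.2 CPM in WT and at 180.2 and 155.4 CPM in T4A, and these ranges overlapped (log2 fold change 0.13, SE 0.10).

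PCNA, the sliding clamp that tethers polymerases, and RFC, which opens it, gave mixed values. PCNA was at 186.7 and 195.9 CPM in WT and at 232.4 and 224.2 CPM in T4A, with no overlap (log2 fold change 0.25, SE 0.09, unadjusted p = 0.0214, adjusted p = 0.265). RFC5 was at 109.4 and 108.6 CPM in WT and at 130.8 and 122.7 CPM in T4A, also with no overlap (log2 fold change 0.22, SE 0.09, unadjusted p = 0.0343, adjusted p = 0.297). RFC1 and RFC3 had T4A values above both WT values as well, with log2 fold changes of 0.15 (SE 0.09) and 0.21 (SE 0.10). RFC4 and RFC2 had both T4A values below both WT values, at −0.14 (SE 0.09) and −0.03 (SE 0.09). For RFC2 the gap was small, since WT replicate 1 was at 71.69 CPM and T4A replicate 1 at 71.68 CPM. The median over these 6 genes was 0.18 above that of all tested genes.

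Of the helicase loading genes, CDC6 and CDT1, which act at the same step, had log2 fold changes of opposite sign. CDC6 (ENSG00000094804, chr17:40287879-40304657, plus strand, GRCh38), an ATPase that recruits MCM2-7 to the origin, was at 146.8 and 147.5 CPM in WT and at 182.6 and 178.7 CPM in T4A. The conditions did not overlap, and the gap was large beside the spread within each (log2 fold change 0.30, SE 0.08, unadjusted p = 0.00757, adjusted p = 0.228). Under the alternatives the adjusted p ran from 0.00867 to 0.758.

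CDT1 (ENSG00000167513, chr16:88803789-88809258, plus strand, GRCh38), the partner of CDC6 in loading that is destroyed once S phase begins, was at 21.4 and 23.5 CPM in WT and at 4.74 and 20.6 CPM in T4A. The low value came from T4A replicate 1, 4.35-fold below T4A replicate 2. Its count of 159 has a 95% Poisson interval of 135 to 186, which covers counting error only, and that of the 713 counts in T4A replicate 2 runs from 662 to 767, so the intervals lie far apart. The log2 fold change was −0.82 (SE 0.50, adjusted p = 0.449), the largest in size and the least precise of the members. It was −2.26 without T4A replicate 2 (SE 0.19, adjusted p = 7.36e-29), −1.14 with the replicate number as a block (SE 0.20, adjusted p = 7.56e-06) and −0.90 with mitochondrial scaling (SE 0.21, adjusted p = 0.00723), and adjusted p-values reached 0.825 in other fits. It was −0.12 without T4A replicate 1 (SE 0.16, adjusted p = 0.7999) and −0.57 with the trend on GC content removed (SE 0.19, adjusted p = 0.0970). CDT1 in T4A therefore rests on a single library.

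The MCM subunits themselves had small differences. MCM4 was at 84.4 and 85.2 CPM in WT and at 94.7 and 99.96 CPM in T4A (log2 fold change 0.20, SE 0.09, unadjusted p = 0.0462, adjusted p = 0.317). MCM2, MCM3, MCM5, MCM6 and MCM7 had overlapping conditions and log2 fold changes between −0.09 and 0.07, with SE of 0.09 to 0.11. For MCM6 the 95% interval of the log2 fold change ran from −0.24 to 0.18, so smaller differences were not detectable with 2 libraries a condition.

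In the origin recognition complex, ORC3 had lower and ORC6 higher values in T4A. ORC3 was at 67.8 and 76.8 CPM in WT and at 59.4 and 56.6 CPM in T4A, with no overlap (log2 fold change −0.32, SE 0.10, unadjusted p = 0.0111, adjusted p = 0.240). ORC2 (−0.17, SE 0.09) also had both T4A values below both WT values, and ORC6 (0.17, SE 0.09) had both above. ORC1, which recruits the complex to chromatin in G1, ORC4 and ORC5 overlapped between the conditions.

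Members that activate the helicase and copy DNA mostly had log2 fold changes below 0, each less than 2 standard errors from it. GINS1, a subunit of the CDC45-MCM-GINS helicase, was at 101.7 and 113.2 CPM in WT and at 98.1 and 93.6 CPM in T4A (log2 fold change −0.17, SE 0.09, unadjusted p = 0.111, adjusted p = 0.416). MCM10 (−0.16, SE 0.09) and CDC45 (−0.15, SE 0.09) likewise had no overlap, whereas GINS2 (0.09, SE 0.11) and GINS3 (0.11, SE 0.10) had both T4A values above both WT values. All 8 tested primase and polymerase members had log2 fold changes below 0, from −0.22 to −0.05, as 50.1% of all tested genes did. With library sizes in place of TMM, 7 of 8 did. Of these 8 members 0 were lower at an unadjusted p below 0.05, against 8.02% of all tested genes. POLE3 and POLE4, subunits of polymerase epsilon, are not among the members. POLE3 was at −0.03 (SE 0.09), and POLE4 was higher in T4A, at 0.32 (SE 0.14, unadjusted p = 0.0499, adjusted p = 0.323). POLA1, the catalytic subunit of polymerase alpha and the gene with the highest CPM of all members, was at 909.0 and 937.8 CPM in WT and at 815.2 and 790.4 CPM in T4A (log2 fold change −0.20, SE 0.12). POLD2, a regulatory subunit of polymerase delta, was at 15.1 and 15.9 CPM in WT and at 11.6 and 15.0 CPM in T4A (log2 fold change −0.22, SE 0.16, unadjusted p = 0.201, adjusted p = 0.522), where the low value was that of T4A replicate 1. Its log2 fold change was −0.04 without T4A replicate 1, −0.43 without T4A replicate 2 and −0.10 with the trend on GC content removed. POLD1, the catalytic subunit, was at 49.0 and 38.9 CPM in WT and at 32.6 and 47.3 CPM in T4A, so that the libraries within each condition were further apart than the means of the conditions, 43.9 and 39.95 CPM.

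LIG1, which seals nicks between Okazaki fragments, was at 82.4 and 70.3 CPM in WT and at 68.8 and 79.5 CPM in T4A (log2 fold change −0.04, SE 0.11, adjusted p = 0.874). Of the regulators, UHRF1 was at 218.5 and 195.5 CPM in WT and at 172.1 and 196.6 CPM in T4A (log2 fold change −0.17, SE 0.11, unadjusted p = 0.151, adjusted p = 0.464). E2F1, the activator of many members, was at 46.2 and 41.7 CPM in WT and at 43.5 and 53.0 CPM in T4A (log2 fold change 0.13, SE 0.12). All 3 genes overlapped between the conditions.

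**Figure D3:**
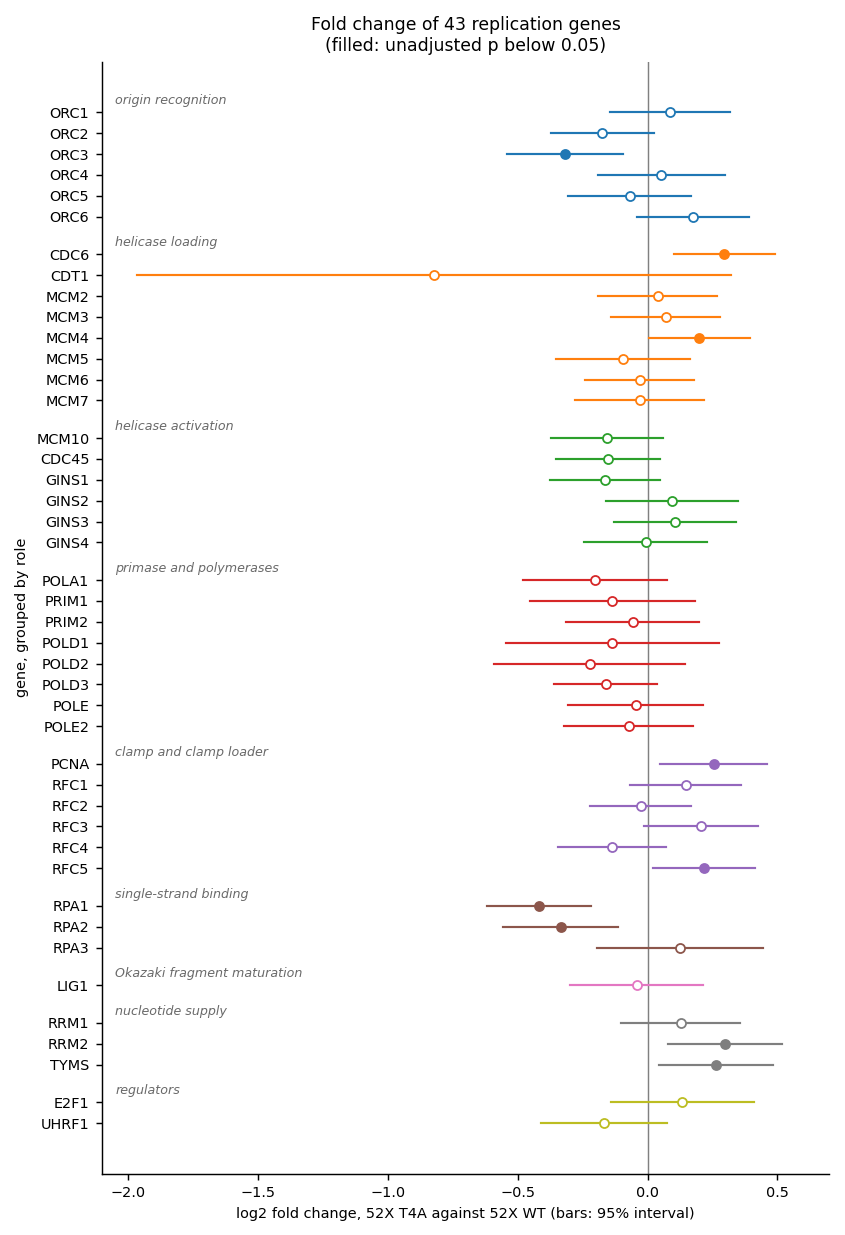
Log2 fold change (52X T4A over 52X WT) for the 43 tested genes by role, with 95% intervals; filled points have an unadjusted p below 0.05. The primase and polymerase members all lie below 0 (7 of 8 with library sizes in place of TMM) with intervals that include it. The widest interval is that of CDT1.

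The pathway's other genes had a median close to 0 as well. Of 49 further replication and S-phase genes, 47 were tested and 0 were called. At an unadjusted p below 0.05, 3 were lower (6.38%, against 8.02% of all tested genes) and 5 higher (10.6%, against 7.45%), and their median log2 fold change was 0.05 above that of all tested genes. TICRR, which helps load CDC45 onto origins, had a mean of 104.6 CPM in the WT libraries and was at 82.7 and 74.2 CPM in the T4A libraries, with no overlap (log2 fold change −0.41, SE 0.10, unadjusted p = 0.00229, adjusted p = 0.188). TFDP1, the dimer partner of E2F proteins, was also lower (log2 fold change −0.33, SE 0.09, adjusted p = 0.208). CCNE2 and CCNE1, the E-type cyclins that drive entry into S phase, were higher. CCNE2 was at 55.5 and 55.2 CPM in WT and at 70.3 and 71.4 CPM in T4A (log2 fold change 0.36, SE 0.09, unadjusted p = 0.00311, adjusted p = 0.202), and CCNE1 had a log2 fold change of 0.29 (SE 0.10, adjusted p = 0.255). NASP, a chaperone of histone H3, was at 0.27 (SE 0.11, adjusted p = 0.305). No overlap between the conditions was seen for 7 genes in the lower and 16 in the higher direction (14.9% and 34.04%, against 24.7% and 24.8% of all tested genes).

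Genes of G2 and mitosis, which act after replication, were higher where they passed an unadjusted p of 0.05. Of 30 such genes 29 were tested, 0 were called, 0 were lower (against 8.02% of all tested genes) and 5 were higher (17.2%, against 7.45%) at an unadjusted p below 0.05, and their median was 0.04 above that of all tested genes. The 5 were PTTG1, KIF20A, BUB3, MKI67 and AURKA, with log2 fold changes between 0.22 and 0.29. PTTG1, securin, was at 57.3 and 58.4 CPM in WT and at 69.8 and 71.8 CPM in T4A (log2 fold change 0.29, SE 0.09, unadjusted p = 0.00945, adjusted p = 0.236). Replication-dependent histone genes, which are also used in S phase, had a median 0.45 below that of all tested genes, with 11 of 47 lower (23.4%, against 8.02%) and 4 higher (8.51%, against 7.45%) at an unadjusted p below 0.05. Their median relative to WT was −0.86 in T4A replicate 1 but −0.13 in T4A replicate 2, whereas that of the replication genes was −0.02 and −0.01, in the same order. Many histone genes are near-identical in sequence, and only uniquely aligned reads were counted. The difference between the lists was not tested.

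**Figure D4:**
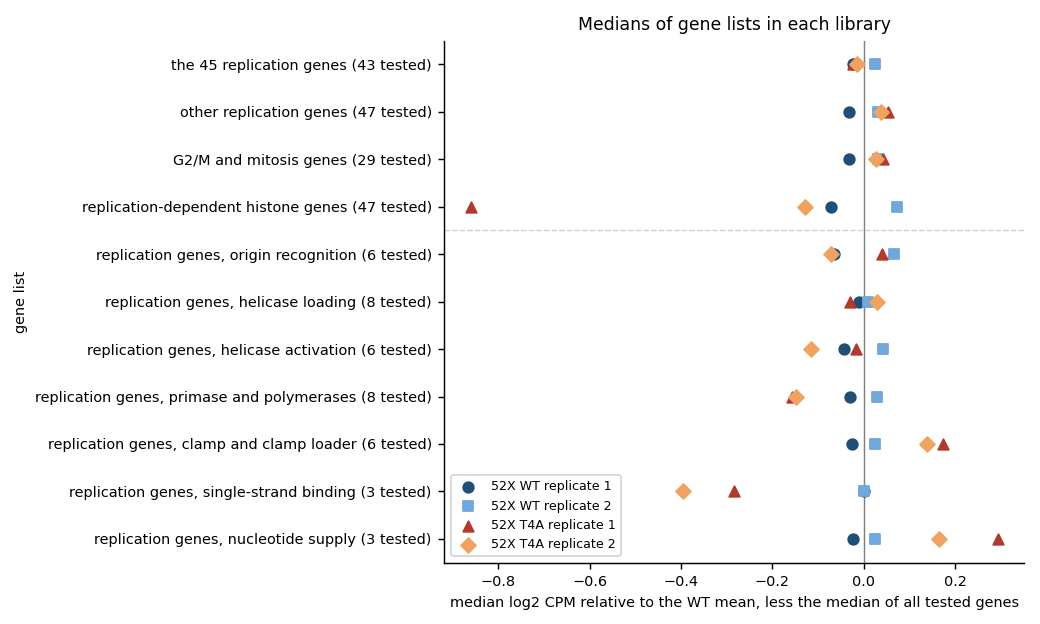
Median log2 CPM relative to the WT mean, less the median of all tested genes, in each library for 4 gene lists (above the dashed line) and for the roles within the replication genes. The replication genes as a whole sit at 0 in every library within 0.03, and the histone genes at −0.86 in T4A replicate 1. The medians of the RPA, polymerase, clamp and nucleotide supply genes lie apart from 0 in both T4A libraries. The log2 fold changes of RPA3, RFC2 and RFC4 have the opposite sign to the median of their role.

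The libraries of a condition differed from each other along GC content, and the members took part in this. The GC content of the members' spans ran from 36.0% to 65.3% with a median of 44.2%, close to the 44.3% of all tested genes. Over the 43 members, the difference between T4A replicates 1 and 2 in log2 CPM correlated with GC content at −0.74 (−0.75 without CDT1), and over 23162 genes at −0.50. These are descriptions over genes that share the libraries. Of 11 members above 50% GC, 10 were lower in T4A replicate 1 than in T4A replicate 2, with a median of −0.24, and of the 32 members at 50% or less, 28 were higher, with a median of 0.08. CDT1 had the highest GC content of the members, and 20 of the 10476 genes with a mean of at least 10 CPM, CDT1 included, had a difference as low as its own. The WT replicates differed the other way and by less: 9 of the 11 members above 50% GC were higher in WT replicate 1, and 26 of the other 32 were lower (r of 0.58 over the members, 0.14 over all genes). RPA1 (44.5% GC), CDC6 (43.5%) and RRM2 (50.8%) lay near 0 in both differences. The part of GC content in the fold changes was not tested beyond the fit that removed the trend, in which the 4 members named above were called.

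**Figure D5:**
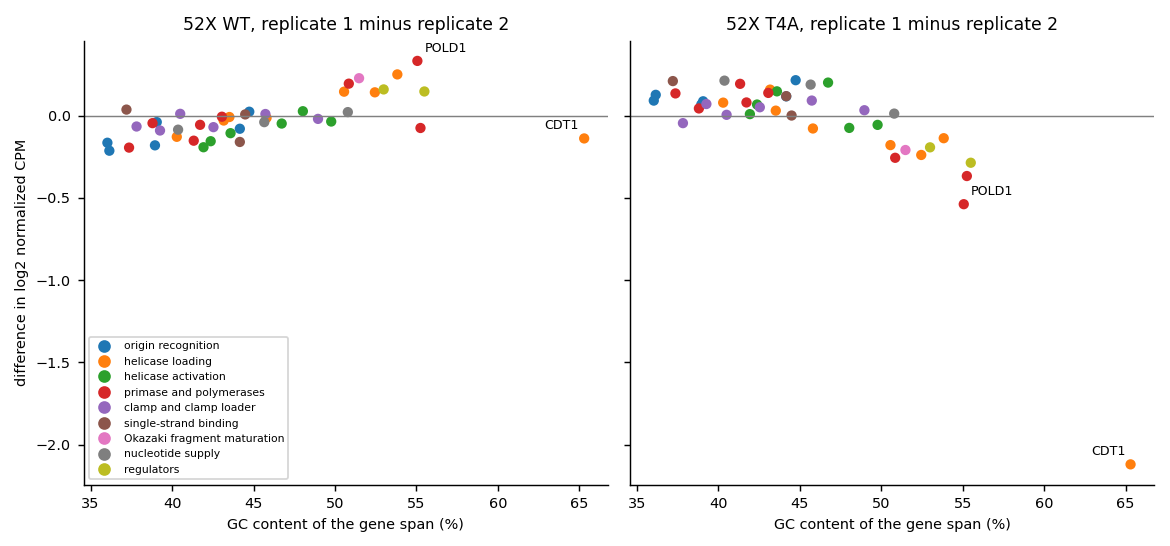
Difference in log2 CPM between replicate 1 and replicate 2 of 52X WT (left) and 52X T4A (right) against the GC content of the gene span, for the 43 tested members coloured by role. In 52X T4A the members above 50% GC lie mostly below 0, down to CDT1 at −2.12, and in 52X WT most of them lie above 0.

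The promoters of the members have the letters of E2F and CCAAT sites more often than the promoters of all genes, which is given as a description with no test. Windows from 250 bases before to 50 bases after the start were given in RefSeq (GRCh38.p14) for 39 of the 45 members and for 27305 genes in all. An E2F site (TTTCCCGC, TTTCGCGC, TTTGCCGC or TTTGGCGC, on either strand) was in 51.3% of the members and in 3.99% of all genes, and a CCAAT box (CCAAT) was in 61.5% and 39.7%. A GC box (GGGCGG) was in 74.4% and 48.3%, and it overlapped the E2F site in 2 of the 20 members with one. The CHR element (TTTGAA) of genes expressed late in the cell cycle was in 2.56% of the members, RRM1 alone, and in 18.2% of all genes. Of the 19 tested members with an E2F site, 3 with higher and 1 with lower values had an unadjusted p below 0.05. Their median log2 fold change was −0.03. Of the 18 tested members without an E2F site, 2 were higher and 1 lower, with a median of −0.06. Over all tested genes, 7.45% were higher and 8.02% lower at this threshold. These counts are of few genes, and the difference between the 2 groups of members was not tested. The windows of 6 members with an unadjusted p below 0.05 are shown 5′ to 3′ on the strand of the gene to let both directions be compared, with E2F sites and CCAAT boxes in capitals (CCAAT on the other strand reads ATTGG). The first 4 had higher and the last 2 lower values in T4A.
CDC6 (chr17:40287629-40287928, plus strand): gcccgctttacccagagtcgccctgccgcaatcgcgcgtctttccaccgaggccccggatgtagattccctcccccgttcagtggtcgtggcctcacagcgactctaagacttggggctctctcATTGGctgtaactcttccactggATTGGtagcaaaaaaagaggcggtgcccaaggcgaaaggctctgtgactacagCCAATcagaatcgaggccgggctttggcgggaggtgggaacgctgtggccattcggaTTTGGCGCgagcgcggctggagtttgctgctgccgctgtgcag
PCNA (chr20:5126573-5126872, minus strand): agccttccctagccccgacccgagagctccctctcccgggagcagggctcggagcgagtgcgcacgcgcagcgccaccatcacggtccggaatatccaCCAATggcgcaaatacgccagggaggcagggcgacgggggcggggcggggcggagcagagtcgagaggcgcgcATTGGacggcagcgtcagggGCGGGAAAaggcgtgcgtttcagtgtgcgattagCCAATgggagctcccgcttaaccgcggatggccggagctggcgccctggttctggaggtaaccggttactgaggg
TYMS (chr18:657403-657702, plus strand): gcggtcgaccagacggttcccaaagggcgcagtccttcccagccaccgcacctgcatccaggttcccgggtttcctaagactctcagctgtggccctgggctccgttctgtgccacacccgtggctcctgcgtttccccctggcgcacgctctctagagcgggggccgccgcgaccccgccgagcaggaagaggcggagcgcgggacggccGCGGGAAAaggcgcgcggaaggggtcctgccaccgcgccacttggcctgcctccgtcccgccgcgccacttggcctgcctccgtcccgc
RRM2 (chr2:10122489-10122788, plus strand): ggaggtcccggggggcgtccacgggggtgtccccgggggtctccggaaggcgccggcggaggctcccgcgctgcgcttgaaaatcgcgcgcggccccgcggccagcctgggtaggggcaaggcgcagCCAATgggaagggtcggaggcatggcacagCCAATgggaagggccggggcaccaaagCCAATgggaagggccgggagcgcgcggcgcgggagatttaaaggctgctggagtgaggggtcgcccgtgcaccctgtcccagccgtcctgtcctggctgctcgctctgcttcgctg
RPA1 (chr17:1829755-1830054, plus strand): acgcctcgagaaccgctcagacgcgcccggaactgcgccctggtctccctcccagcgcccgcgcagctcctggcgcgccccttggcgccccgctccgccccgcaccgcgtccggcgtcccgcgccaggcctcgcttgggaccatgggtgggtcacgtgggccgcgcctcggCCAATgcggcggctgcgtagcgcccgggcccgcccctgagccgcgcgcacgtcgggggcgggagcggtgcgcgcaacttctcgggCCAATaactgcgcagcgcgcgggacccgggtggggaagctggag
ORC3 (chr6:87589885-87590184, plus strand): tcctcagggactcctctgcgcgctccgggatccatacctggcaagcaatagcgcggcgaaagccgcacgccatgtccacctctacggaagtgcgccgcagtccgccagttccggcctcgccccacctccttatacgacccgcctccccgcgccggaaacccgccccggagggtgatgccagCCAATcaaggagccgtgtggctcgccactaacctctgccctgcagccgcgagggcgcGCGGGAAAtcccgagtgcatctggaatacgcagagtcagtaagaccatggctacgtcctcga

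The E2F site lies 59 bases before the start in PCNA, where it overlaps a GC box, 39 bases before it in TYMS, 12 bases before it in ORC3, and 7 bases after it in CDC6. ORC3 thus holds both kinds of site and had lower values in T4A, and RRM2 holds 3 CCAAT boxes and no E2F site of these letters and had higher values. PCNA and RRM2 each have another window in the table, which is not shown.

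Several members share their promoter region with a gene on the other strand. For 10 members a protein-coding gene whose start lies within 1000 bases upstream was tested, and 0 of these 10 partners had an unadjusted p below 0.05, and 3 of the 10 members did, where the share over all tested genes was 15.5%. The partner of ORC3, RARS2, starts 80 bases away and was at −0.05 (SE 0.11) in log2 fold change. PRKDC, which starts 7 bases from MCM4, was at −0.14 (SE 0.10), and CDS2, which starts 253 bases from PCNA, was at −0.09 (SE 0.09). Over the 10 partners the median was −0.05 and the range −0.14 to 0.19. The upper end is PXMP2, the partner of POLE, which was at 0.521 CPM or less in every library (SE 1.09). The next highest was PRPF38A, the partner of ORC1, at 0.08 (SE 0.10). Whether a member differs from its partner was not tested.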

How the data were processed

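TT-seq libraries of 2 52X WT and 2 52X T4A samples were analysed. The authors deposited raw counts per gene, made with featureCounts from uniquely aligned, strand-specific reads. The listed length equals the gene span for all 60708 genes, so introns were counted. Of 19034 protein-coding genes, 99.979% overlapped their GRCh38 position. Per the labels, the processing notes name GRCh38, FastQC, cutadapt 4.6, STAR 2.7.11b, Picard and deepTools 3.5.6, with no role given. The counting settings are not given in the sources used here. Symbols were matched by Ensembl identifier (58702 genes).

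Differential expression was tested on all genes with edgeR 4.0.16 (R 4.3.3; TMM, filterByExpr, quasi-likelihood test, Benjamini-Hochberg adjustment, calls at an adjusted p below 0.05), after the code was tested on simulated data. SE were derived from the F statistic. GC content came from GRCh37 spans of the same identifiers. Alternatives were DESeq2 1.42.0, other scalings and filters, a replicate block, trends on span and GC content, and each library left out. Members and lists were chosen with earlier results of these data known. Full statistics are given for called members, the 10 largest fold changes without overlap, the largest of each role, members with an unadjusted p below 0.05 (added after the values were seen), up to 6 genes of each other list, and POLR2A. A withheld item is not reported here.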

Additional observations from a re-analysis of the deposited data

How the results depend on the processing

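Over the 26 named genes and 15 alternatives, 363 fits kept the direction and the side of the threshold, 24 kept the direction and passed it, and 3 turned the direction, all of LIG1, whose log2 fold change became 0.00928 with library sizes in place of TMM and, with 1 library left out in turn, ran from −0.169 to 0.0664, above 0 without 52X WT replicate 1 (0.0649) or 52X T4A replicate 1. Calls over all genes (1) became 913 with DESeq2, 195 with mitochondrial scaling, 150 with no filter, 533 with the replicate block, 2 with the trend on gene span removed, 3 with both of the latter and 982 with the trend on GC content removed. Calls among the members (0) became 5 with DESeq2, 1 with mitochondrial scaling, 1 with the replicate block and 4 after the GC correction. Members at an unadjusted p below 0.05 (9, or 20.9%, against 15.5% of all tested genes) became 14 with library sizes and 2 with mitochondrial scaling. The shares over all genes under these scalings are given above. The members became 4 with the replicate block and 14 after the GC correction. No share over all genes is given for these 2 fits, so their counts are not a result about the members. With no filter, the medians relative to all genes became −0.116 for the members, −0.0358 for the other replication genes and −0.0491 for the G2/M genes, and with protein-coding genes only 0.0121, 0.0879 and 0.0832. The causes were not tested. With 1 library left out in turn, the calls over all genes ran from 0 to 3466 (most without 52X T4A replicate 2), the member calls from 0 to 4, the members at an unadjusted p below 0.05 from 3 to 12, the members without overlap from 33 to 35, and the medians from −0.0504 to −0.00589 for the members, −0.00107 to 0.0664 for the other replication genes, −0.0191 to 0.0465 for the G2/M genes and −0.955 to −0.123 for the histone genes. Leaving out a library leaves 1 in its condition, which is assumed to vary like the others. A condition of 1 library also overlaps the other less readily than a condition of 2. The 33 to 35 members without overlap are therefore not comparable with the 25 found with all libraries. No share over all genes is given for these counts, so they are not a result about the members. The replicate numbers were not shown to pair the libraries: with only 2 pairs, the deviations of same-numbered libraries correlated at 0.02. With 2 libraries a condition and a median SE of 0.10 on the log2 scale, small differences in the members could not be detected.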
